A study of Mus musculus with 12 samples.

Results

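The 9 genes described here encode the proteins that release calcium from internal stores, let it into the cell and pump it out again: the IP3 receptors Itpr1, Itpr2 and Itpr3, the store sensor Stim1, the store-operated channel Orai1, the voltage-gated channel Cacna1c, the cation channel Trpm3 and the plasma membrane pumps Atp2b1 and Atp2b4. They were chosen by symbol, all 9 were found among the 55401 genes of the deposited count table, and all 9 passed the filter on low counts, which left 12613 genes. RNA was measured in cells sorted as astrocytes from 2 brain regions of mice carrying CD51-Flp and the reporter Rosa-CAG-FSF-tdTomato. In such mice Flp, driven by CD51 (integrin alpha-v, gene Itgav), turns on tdTomato. The 4 groups were hippocampus CD51+ (tdTomato+/GFP+), hippocampus CD51- (tdTomato-/GFP+), cortex CD51+ (tdTomato+/GFP+) and cortex CD51- (tdTomato-/GFP+), with 3 libraries each. The sources used here do not give the driver of GFP or the age and sex of the mice. Whether the 3 libraries of a group stem from different animals is not stated either, and the p-values therefore describe library-to-library spread that may be technical.

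In most cell types, receptors coupled to phospholipase C raise IP3, which opens IP3 receptors in the endoplasmic reticulum and releases stored calcium into the cytosol. When the store empties, STIM proteins in its membrane gather below the cell surface and open Orai channels, and pumps and exchangers then clear the cytosol. Astrocytes use such signals along their processes, and the receptor encoded by Itpr2 is known as their main route of store release.

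Total counts were 4.35e6 to 12.8e6 per library, and mitochondrial genes took 20.2% to 71.1% of them. Cortex CD51+ replicate 3 stood apart, with 58.4% of its counts in mitochondrial ribosomal RNA. The spread between libraries was wide, with a biological coefficient of variation of 1.28, and between 31.4% and 40.6% of the genes that reached 5 CPM (counts per 1e6, on library sizes scaled by TMM factors) in 1 library of a group were under 1 CPM in another. The summed level of 15 astrocyte markers was 43374 to 55600 CPM in hippocampus CD51+ libraries and 12865 to 15250 CPM in hippocampus CD51- libraries. In cortex it was 51710 to 69525 CPM in CD51+ libraries and 4113 to 12883 CPM in CD51- libraries, and no astrocyte marker was at 0 counts in any group. The 14 markers of microglia and macrophages summed to 224 to 1577 CPM in hippocampus CD51+, 5386 to 7804 CPM in hippocampus CD51-, 336 to 1004 CPM in cortex CD51+ and 8220 to 11336 CPM in cortex CD51- libraries. The 13 oligodendrocyte markers summed to 1257 to 5014 CPM in hippocampus CD51+, 6918 to 38067 CPM in hippocampus CD51-, 2721 to 2861 CPM in cortex CD51+ and 33247 to 64022 CPM in cortex CD51- libraries. Averaged over both regions, 15 of 15 astrocyte markers were higher in CD51+ cells, and 13 of 14 microglia and 5 of 12 tested oligodendrocyte markers were lower. The library names carry a G where titles say CD51+ and a GT where they say CD51-, which could mean the opposite classes. The groups follow the titles, and every class difference below would change sign under the other reading. Itgav did not differ between the classes past the test (edgeR adjusted p = 0.984 in hippocampus and 0.269 in cortex), with 323 to 412 CPM in CD51+ and 223 to 565 CPM in CD51- libraries of the hippocampus, and 337 to 879 CPM in CD51+ and 248 to 358 CPM in CD51- libraries of the cortex. In bulk libraries of sorted cells, fewer cells of a type and less RNA per cell cannot be told apart.

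Promoter windows, each 250 bases before to 50 after a transcript start, are shown for the 3 genes that differed between the classes in the average over regions (Trpm3, Atp2b4 and Itpr3) and, beside Itpr3, for Itpr2, the most abundant IP3 receptor. They come from RefSeq on GRCm38.p6, in which 8 of the 9 genes were matched. Itpr1 was not. Capitals mark matches, on either strand, to the TATA box TATAAA, the CCAAT box CCAAT, the GC box GGGCGG and the E-box CACGTG, which do not overlap one another here. Trpm3 has 2 starts, with windows at chr19:22138796-22139095 and chr19:22447958-22448257, both on the plus strand. The window of Atp2b4 lies inside the gene span counted here, whose upstream end on the minus strand is at chr1:133801041. The RefSeq set held no Atp2b4 window at that end. The window of Itpr3 is chr17:27057054-27057353 on the plus strand, that of Itpr2 is chr6:146502174-146502473 on the minus strand, and that of Atp2b4 is chr1:133753698-133753997 on the minus strand.
Trpm3 start 1: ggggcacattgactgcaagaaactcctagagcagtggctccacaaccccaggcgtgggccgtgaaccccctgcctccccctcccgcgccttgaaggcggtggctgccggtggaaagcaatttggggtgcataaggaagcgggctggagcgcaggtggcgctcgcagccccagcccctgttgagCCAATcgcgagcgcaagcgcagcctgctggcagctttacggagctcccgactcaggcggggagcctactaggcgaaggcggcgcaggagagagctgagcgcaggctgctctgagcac
Trpm3 start 2: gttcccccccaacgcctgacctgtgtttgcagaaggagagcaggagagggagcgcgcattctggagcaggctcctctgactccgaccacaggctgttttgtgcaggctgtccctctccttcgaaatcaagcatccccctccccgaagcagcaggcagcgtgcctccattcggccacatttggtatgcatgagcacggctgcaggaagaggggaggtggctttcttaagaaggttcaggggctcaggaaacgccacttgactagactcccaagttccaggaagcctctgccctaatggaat
Atp2b4: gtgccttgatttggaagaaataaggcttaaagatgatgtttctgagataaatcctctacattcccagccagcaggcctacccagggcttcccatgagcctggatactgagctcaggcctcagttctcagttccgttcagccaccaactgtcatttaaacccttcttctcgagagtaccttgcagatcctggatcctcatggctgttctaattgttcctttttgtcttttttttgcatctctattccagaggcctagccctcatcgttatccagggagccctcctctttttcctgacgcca
Itpr3: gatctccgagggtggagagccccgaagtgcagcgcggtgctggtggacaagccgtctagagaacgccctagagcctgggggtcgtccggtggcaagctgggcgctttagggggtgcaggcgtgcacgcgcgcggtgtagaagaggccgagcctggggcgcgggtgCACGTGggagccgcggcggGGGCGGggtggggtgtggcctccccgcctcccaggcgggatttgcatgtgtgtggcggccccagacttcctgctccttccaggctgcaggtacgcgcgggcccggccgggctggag
Itpr2: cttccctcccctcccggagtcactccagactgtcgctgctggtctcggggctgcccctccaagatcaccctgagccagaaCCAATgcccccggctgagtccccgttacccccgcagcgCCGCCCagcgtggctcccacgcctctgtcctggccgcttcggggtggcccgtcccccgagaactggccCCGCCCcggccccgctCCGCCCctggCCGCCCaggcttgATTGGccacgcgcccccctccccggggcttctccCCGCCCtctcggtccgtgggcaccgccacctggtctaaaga

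The windows differ in composition. Itpr2 holds 2 CCAAT boxes, 5 GC boxes and 26 CpG dinucleotides, and Itpr3 holds 1 GC box, 1 E-box and 30 CpG dinucleotides. The upstream Trpm3 window has 1 CCAAT box and 21 CpG dinucleotides, and the downstream one has none of the 4 motifs and 10 CpG dinucleotides. The internal Atp2b4 window also has none of the 4 motifs, and 4 CpG dinucleotides. Over 32851 mouse promoter windows of this length the median was 7 CpG dinucleotides (quartiles 3 and 20), and 37.4% held a CCAAT box, 35.7% a GC box, 13.6% a TATA box and 7.15% an E-box. A match is a description of the letters alone.

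Levels between genes are compared per length, as CPM per kilobase of exon. In hippocampus CD51+ cells the order ran from Trpm3 (22.5 ± 4.92, SD, n = 3 libraries, as for all SDs below) and Itpr2 (14.5 to 21.4 in its 3 libraries) through Atp2b1 (4.20 ± 2.76), Itpr1 (3.50 ± 2.11), Stim1 (2.43 ± 2.30), Atp2b4 (2.28 ± 2.41) and Orai1 (0.707 ± 0.766) to Cacna1c (0.0803 ± 0.132) and Itpr3, which had no count. Each neighbour in that order overlapped the next in its libraries except Itpr2 and Atp2b1, so Trpm3 and Itpr2 formed a pair above the rest. In hippocampus CD51- cells the top 3 were Trpm3 (7.66 ± 3.96 CPM per kilobase), Atp2b1 (7.21 ± 7.04) and Itpr2 (6.76 ± 2.88). They overlapped one another, and Itpr2 did not overlap Itpr1 below it at 2.06 ± 1.05. In cortex CD51+ cells Trpm3 (18.3 ± 5.15), Itpr2 (17.4 ± 6.58) and Atp2b1 (8.29 ± 4.76) again led, each overlapping the next. In cortex CD51- cells the order began with Itpr2 (11.9 ± 8.48) and Atp2b1 (6.05 ± 1.46), and Trpm3 followed at 2.48 ± 3.53 CPM per kilobase. Atp2b4 came last there at 0.0488 ± 0.0542, overlapping Cacna1c at 0.143 ± 0.232.

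**Figure D1:**
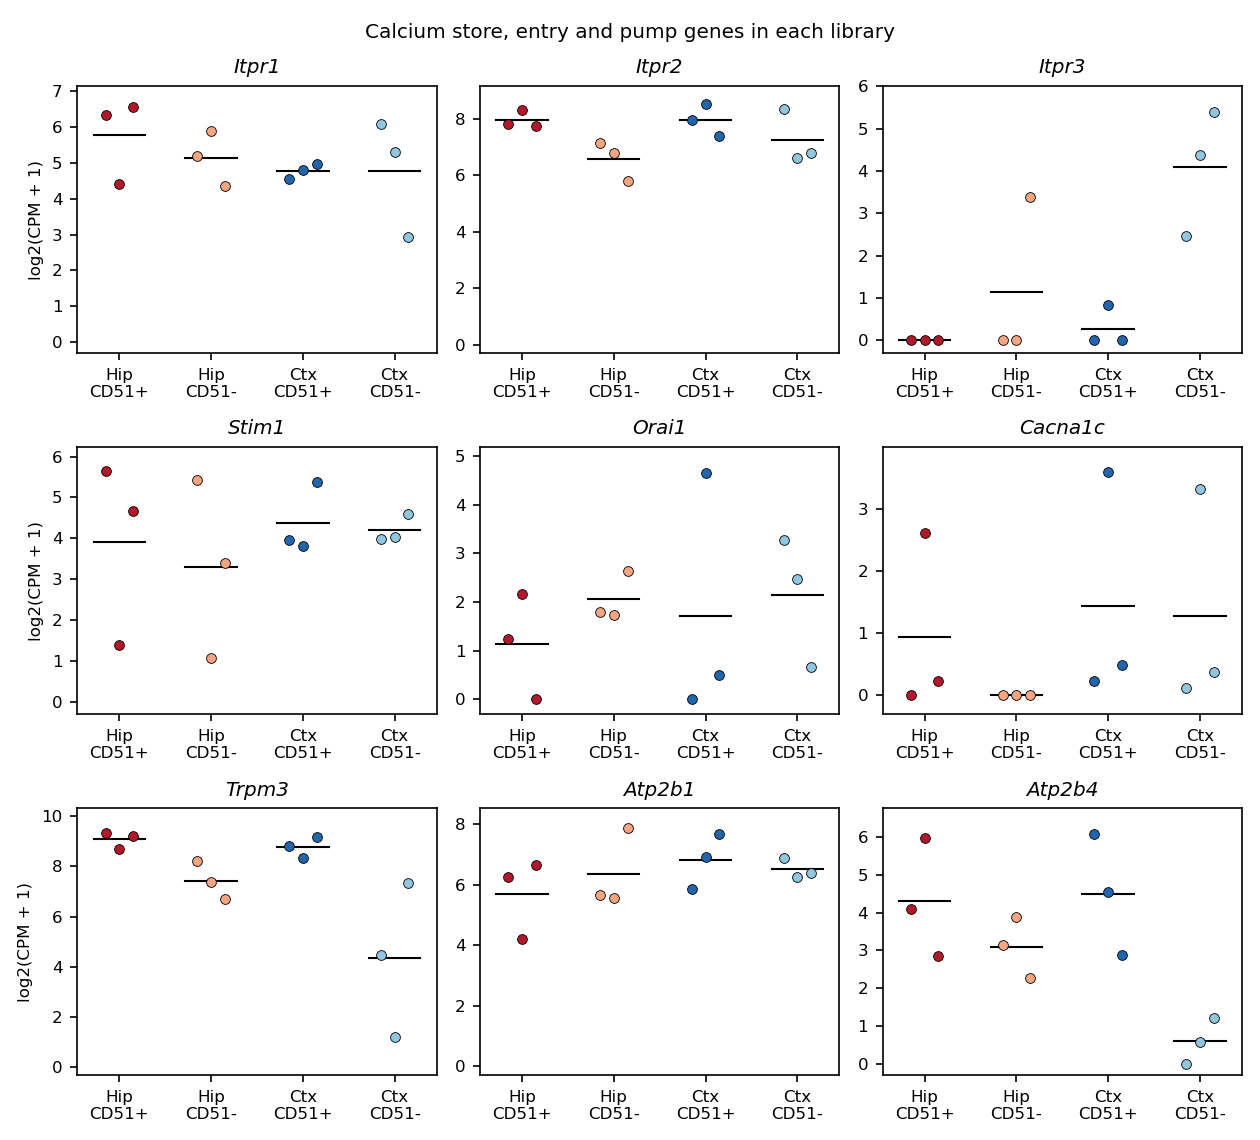
Level of each of the 9 genes, log2(CPM + 1), in the 12 libraries, 3 per group; points are libraries and bars are the means of the plotted values. Trpm3 libraries of CD51+ cells all lie above those of CD51- cells of the same region, Itpr3 has counts in 1 of the 6 CD51+ libraries, and Atp2b4 is near 0 in the 3 cortex CD51- libraries.

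Of the IP3 receptors, Itpr2 (ENSMUSG00000030287.15, chr6:146108299-146502223, minus strand, mm10) had the most transcript per length in all 12 libraries, with 2.31 to 20.8 times the level of Itpr1. Its share of the summed CPM per kilobase of the 3 receptors was 82.3% ± 11.2 in hippocampus CD51+, 71.9% ± 9.88 in hippocampus CD51-, 91.4% ± 3.71 in cortex CD51+ and 68.2% ± 13.7 in cortex CD51- cells. The rest was mostly Itpr1 in CD51+ cells, with no more than 0.329% Itpr3 in any library. In cortex CD51- cells Itpr3 made up 19.7% ± 17.5 of the sum, and up to 36.9% in 1 library.

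**Figure D2:**
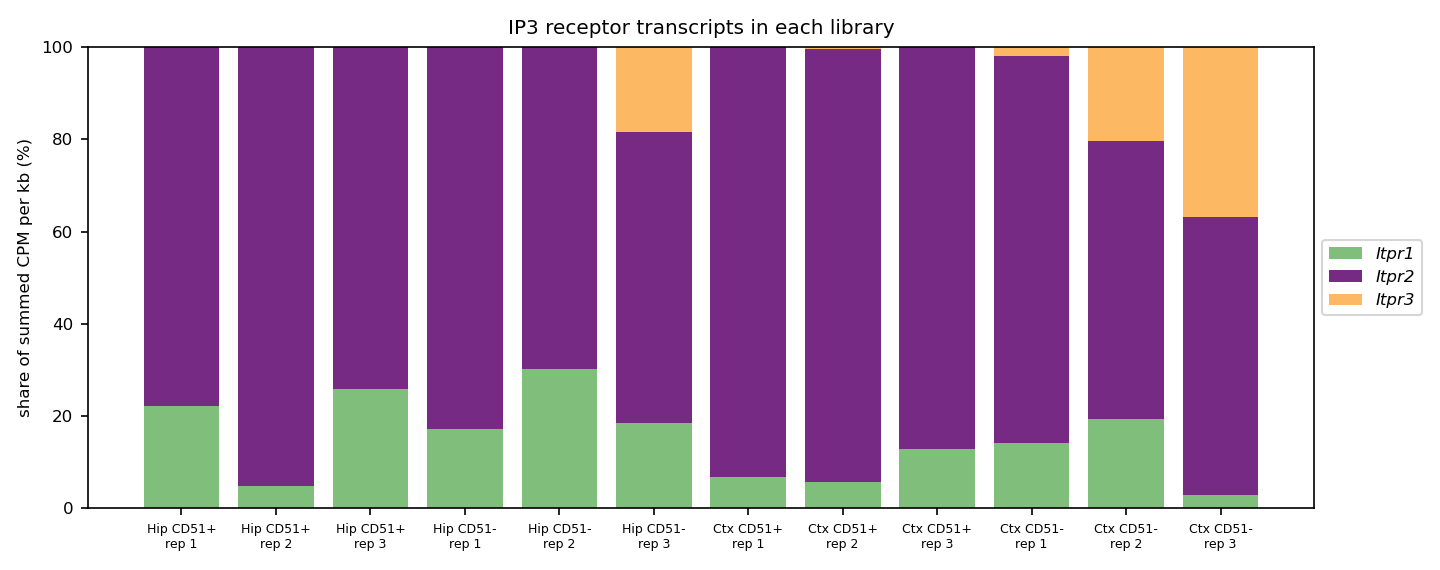
Share of Itpr1, Itpr2 and Itpr3 in the summed IP3 receptor level (CPM per kilobase of exon, in percent), one stacked bar per library in the 4 groups of 3. Itpr2 takes the largest share of every bar, and a visible Itpr3 share appears in 1 hippocampus CD51- library and in the 3 cortex CD51- libraries.

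Itpr2 stood at 225, 316 and 214 CPM in hippocampus CD51+ libraries and at 138, 108 and 53.9 CPM in hippocampus CD51- libraries. In cortex it stood at 245, 361 and 167 CPM in CD51+ libraries and at 320, 96.2 and 110 CPM in CD51- libraries. The hippocampal groups did not overlap, with all CD51+ libraries higher, whereas in cortex 1 CD51- library lay among the CD51+ ones. The log2 fold change of CD51+ over CD51- was 1.33 ± 0.66 (SE) in hippocampus (edgeR adjusted p = 0.277), 0.55 ± 0.65 in cortex (adjusted p = 0.612) and 0.94 ± 0.46 on average (adjusted p = 0.149), so no difference passed the test. Per 1000 CPM of the summed astrocyte markers, Itpr2 was 4.33 to 5.69 in CD51+ and 4.19 to 10.3 in CD51- libraries of the hippocampus, and 2.41 to 5.91 in CD51+ and 8.56 to 77.9 in CD51- libraries of the cortex. On that scale, chosen after the values were seen, the cortical groups were apart with CD51- cells higher, while the hippocampal groups overlapped. The marker sum itself was lower in cortex CD51- libraries, so a gene of equal CPM comes out higher there. Itpr1, Itpr3, Stim1 and Atp2b1 were apart in cortex in the same direction, and Orai1, Cacna1c, Trpm3 and Atp2b4 overlapped. The share of all genes apart on that scale was not computed, so these separations do not set the genes apart from others.

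Itpr1 (ENSMUSG00000030102.11, chr6:108213096-108551109, plus strand), the IP3 receptor best known from Purkinje neurons, did not separate the groups. It had 79.6, 20.1 and 92.8 CPM in hippocampus CD51+, 35.7, 57.9 and 19.4 CPM in hippocampus CD51-, 22.3, 26.8 and 30.4 CPM in cortex CD51+ and 66.4, 38.1 and 6.56 CPM in cortex CD51- libraries. Its cortex CD51+ libraries lay within a narrow band, and the cortex CD51- libraries spread on both sides of it. The fitted log2 fold change was 0.77 ± 1.05 in hippocampus (edgeR adjusted p = 0.789), -0.48 ± 1.04 in cortex (adjusted p = 0.806) and 0.14 ± 0.74 on average (adjusted p = 0.929).

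Itpr3 (ENSMUSG00000042644.9, chr17:27057304-27122223, plus strand), the IP3 receptor typical of epithelial and secretory cells, was lower in CD51+ cells. It had no count in the 3 hippocampus CD51+ libraries, and 0, 0 and 105 counts (9.51 CPM in the last) in the hippocampus CD51- libraries. It had 0, 6 and 0 counts (0.769 CPM in the second) in cortex CD51+ libraries, and 54, 165 and 282 counts (4.56, 19.8 and 41.1 CPM) in cortex CD51- libraries. All cortex CD51- libraries were above all cortex CD51+ ones, and in hippocampus 1 library held every count. Pooled over both regions, the CD51+ over CD51- ratio was 0.0166 (95% counting interval 0.00606 to 0.0363), from 6 and 606 counts. With a floor of 3 counts over the group in place of 0, Itpr3 was 18.3-fold lower in hippocampus CD51+ cells. The 95% counting interval there reached down to 14.6-fold and leaves out the spread between libraries. The average over regions passed the test (edgeR adjusted p = 0.0244), and the cortex difference, -6.27 ± 2.87 on the log2 scale, did not (adjusted p = 0.137). The average did not pass without hippocampus CD51- replicate 3 (adjusted p = 0.9999), cortex CD51+ replicate 3 (0.0521) or any 1 of the hippocampus CD51+ replicates (0.0512, 0.0576 and 0.0526). The microglial and oligodendrocyte marker sums given above were lower in CD51+ libraries as well, and their part in the Itpr3 difference was not tested. Genes overlapping its exons on either strand, among them Itpr3os, cover 2.59% of them, and unstranded counting does not separate those reads.

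Stim1 (ENSMUSG00000030987.5, chr7:102267806-102437319, plus strand), which senses the calcium of the store, was present in all 12 libraries without a class difference. It had 49.3, 1.61 and 24.6 CPM in hippocampus CD51+, 42.1, 1.11 and 9.51 CPM in hippocampus CD51-, 14.6, 13.1 and 40.4 CPM in cortex CD51+ and 14.9, 15.3 and 23.3 CPM in cortex CD51- libraries. In hippocampus each class had a library near 1 CPM and a library above 40 CPM, so the spread within a class exceeded the gap between classes. The log2 fold change was 0.52 ± 1.44 in hippocampus (edgeR adjusted p = 0.911), 0.34 ± 1.44 in cortex (adjusted p = 0.911) and 0.43 ± 1.02 on average (adjusted p = 0.813). Its relative Stim2 shared the family sum with it in all groups, and Stim1 took 27.2% ± 14.2 in hippocampus CD51+, 23.2% ± 23.2 in hippocampus CD51-, 56.7% ± 43.7 in cortex CD51+ and 71.4% ± 22.8 in cortex CD51- cells of the 2 genes' CPM per kilobase.

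Orai1 (ENSMUSG00000049686.14, chr5:123015074-123030456, plus strand), the pore of store-operated entry, was low and uneven. It had 1.38, 3.49 and 0 CPM in hippocampus CD51+, 2.46, 2.32 and 5.25 CPM in hippocampus CD51-, 0, 24.2 and 0.406 CPM in cortex CD51+ and 8.69, 4.55 and 0.584 CPM in cortex CD51- libraries. The groups overlapped in both regions, and 1 cortex CD51+ library carried 189 of that group's 191 counts. As a log2 fold change the difference was -1.03 ± 2.22 in hippocampus (edgeR adjusted p = 0.878), 0.83 ± 2.20 in cortex (adjusted p = 0.848) and -0.10 ± 1.52 on average (adjusted p = 0.988). Its sign in cortex turned without cortex CD51+ replicate 2, the library with 189 counts, to -4.44. The related channel Orai2 was lower in CD51+ cells, with 7 counts in CD51+ and 1982 counts in CD51- libraries of both regions (log2 fold change -7.08 ± 1.60 on average, adjusted p = 0.00322; -6.96 ± 2.25 in cortex, adjusted p = 0.0462). Orai2 made up 5.29% ± 9.17 of the summed Orai CPM per kilobase in hippocampus CD51+, 61.8% ± 27.7 in hippocampus CD51-, 19.5% ± 33.8 in cortex CD51+ and 63.5% ± 7.09 in cortex CD51- cells. The CD51+ shares rest on those 7 counts. In cortex CD51+ replicate 1, Orai2 at 0.111 CPM per kilobase made up 58.5% of the sum. The cortex call of Orai2 was lost under 8 of 22 alternatives and its call in the average under none of 21. Whether Orai1 and Orai2 differed from each other in their class effect was not tested.

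Cacna1c (ENSMUSG00000051331.16, chr6:118587240-119196890, minus strand), the pore of the L-type voltage-gated channel, was near the limit of detection. It had 0, 38 and 1 counts in hippocampus CD51+, none in hippocampus CD51-, 1, 86 and 2 counts in cortex CD51+ and 1, 75 and 2 counts in cortex CD51- libraries. In each of the 3 groups with counts, replicate 2 held nearly all of them. Its level was 5.10 CPM in hippocampus CD51+, 11.03 CPM in cortex CD51+ and 8.99 CPM in cortex CD51- cells. Why the same replicate number recurred was not tested. In hippocampus the pooled level was 24.8-fold higher in CD51+ cells against a floor of 3 counts over the group (lower 95% counting limit 19.3). The hippocampus difference did not pass the test (edgeR adjusted p = 0.189). The cortex difference was 0.31 ± 2.35 on the log2 scale (adjusted p = 0.955). Its sign turned to -3.37 without cortex CD51+ replicate 2.

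Trpm3 (ENSMUSG00000052387.16, chr19:22139046-22995410, plus strand), a calcium-permeable cation channel opened by heat and by the steroid pregnenolone sulfate, was higher in CD51+ cells, with the lowest adjusted p of the 9 in the average over regions. It stood at 642, 413 and 591 CPM in hippocampus CD51+ libraries and at 292, 167 and 102 CPM in hippocampus CD51- libraries. In cortex it stood at 442, 325 and 577 CPM in CD51+ libraries and at 21.0, 1.32 and 160 CPM in CD51- libraries. Every CD51+ library was above every CD51- library of both regions, and the cortex CD51- libraries spread widely among themselves. The log2 fold change was 2.88 ± 0.94 in cortex (edgeR adjusted p = 0.0492), 1.55 ± 0.90 in hippocampus (adjusted p = 0.384) and 2.22 ± 0.65 on average, a 4.65-fold difference (adjusted p = 0.0176). The hippocampus effect minus the cortex effect was -1.33 ± 1.25 (adjusted p = 0.726), so the effects were not shown to differ between regions. The average passed under all 21 alternatives run, with adjusted p from 5.43e-05 to 0.0362, whereas the cortex call, close to the threshold, was lost under 9 of 22, among them without any 1 of the 3 cortex CD51+ replicates (adjusted p 0.0631, 0.0519 and 0.112), without cortex CD51- replicate 1 (0.119) or 2 (0.0598) and without hippocampus CD51+ replicate 3 (0.0536).

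Per 1000 CPM of the summed astrocyte markers, Trpm3 was 11.4 ± 3.72 in hippocampus CD51+, 13.5 ± 7.26 in hippocampus CD51-, 7.39 ± 1.79 in cortex CD51+ and 5.93 ± 6.10 in cortex CD51- libraries. On that scale, chosen after the values were seen, the classes overlapped in both regions: 7.43 to 14.8 in CD51+ and 7.95 to 21.7 in CD51- libraries of the hippocampus, and 5.32 to 8.55 in CD51+ and 0.287 to 12.4 in CD51- libraries of the cortex. The part of astrocyte RNA in the Trpm3 difference was not tested. Of the genes most alike to Trpm3 across the 12 libraries, by the root mean square difference of centred log2(CPM + 1) over 8555 genes, Ivd was nearest at 0.46, Ptch1 followed at 0.54 and Baalc at 0.61. The miRNA gene Mir204 lies within Trpm3 on its strand, and its own row held 5 counts over all libraries.

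Atp2b1 (ENSMUSG00000019943.10, chr10:98914406-99026143, plus strand), a plasma membrane calcium pump found in most tissues, did not separate the classes. It had 75.5, 17.4 and 99.0 CPM in hippocampus CD51+, 50.1, 45.8 and 233 CPM in hippocampus CD51-, 57.4, 119 and 202 CPM in cortex CD51+ and 117, 76.2 and 82.4 CPM in cortex CD51- libraries. The classes overlapped in both regions, and the highest library was hippocampus CD51- replicate 3. CD51+ over CD51-, the log2 fold change was -0.78 ± 0.83 in hippocampus (edgeR adjusted p = 0.712), 0.46 ± 0.83 in cortex (adjusted p = 0.761) and -0.16 ± 0.58 on average (adjusted p = 0.889). The hippocampus value turned to 0.40 without that library.

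Atp2b4 (ENSMUSG00000026463.17, chr1:133699457-133801041, minus strand), another pump of the same family, was higher in CD51+ cells in the average over regions. It stood at 16.1, 61.4 and 6.20 CPM in hippocampus CD51+ libraries and at 7.80, 13.8 and 3.803 CPM in hippocampus CD51- libraries. In cortex it stood at 66.8, 22.6 and 6.29 CPM in CD51+ libraries and at 0, 0.479 and 1.31 CPM in CD51- libraries, from 605 counts in CD51+ and 13 counts in CD51- cells. The cortical groups were apart and the hippocampal groups overlapped. The log2 fold change was 5.73 ± 1.91 in cortex (edgeR adjusted p = 0.0528), 1.72 ± 1.59 in hippocampus (adjusted p = 0.654) and 3.72 ± 1.23 on average (adjusted p = 0.0311), and the hippocampus effect minus the cortex effect was -4.01 ± 2.28 (adjusted p = 0.476). The cortex difference passed in DESeq2 (adjusted p = 0.000231), limma-voom (0.0179) and edgeR with upper-quartile factors (0.0463). The average did not pass without cortex CD51+ replicate 1 (0.102), cortex CD51- replicate 1 (0.0549) or 2 (0.0527), hippocampus CD51+ replicate 2 (0.111) or any 1 of the hippocampus CD51- replicates (0.0593, 0.0517 and 0.0716). Per 1000 CPM of the astrocyte markers, Atp2b4 was 0.0905 to 1.29 in CD51+ and 0 to 0.104 in CD51- libraries of the cortex, a narrow overlap, and 0.125 to 1.11 in CD51+ and 0.296 to 0.907 in CD51- libraries of the hippocampus. The part of astrocyte RNA in the Atp2b4 difference was not tested.

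Shares among the 4 pump genes of that family were read per library and not tested. Atp2b2, a pump known from neurons and hair cells, made up 48.8% ± 18.8 of the summed CPM per kilobase in hippocampus CD51+, 18.4% ± 24.2 in hippocampus CD51-, 52.1% ± 25.1 in cortex CD51+ and 7.08% ± 7.20 in cortex CD51- cells. Atp2b1 made up 19.1% ± 13.04 in hippocampus CD51+, 33.4% ± 26.5 in hippocampus CD51-, 33.1% ± 22.9 in cortex CD51+ and 64.2% ± 44.7 in cortex CD51- cells. Atp2b3, another pump known from neurons, made up 21.9% ± 16.1 in hippocampus CD51+, 44.3% ± 22.1 in hippocampus CD51-, 7.02% ± 7.78 in cortex CD51+ and 28.4% ± 48.8 in cortex CD51- cells. In 1 cortex CD51- library Atp2b3 took 84.8% of the sum and Atp2b1 12.8%. The classes overlapped in these shares for Atp2b1 and Atp2b3 in both regions and for Atp2b2 in hippocampus. Atp2b2 was higher in CD51+ cells by 4.35 ± 1.07 on the log2 scale in cortex (edgeR adjusted p = 0.0108) and by 2.97 ± 0.71 on average (adjusted p = 0.00495). Atp2b4 never made up more than 22.6% of the family's sum in a library.

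**Figure D3:**
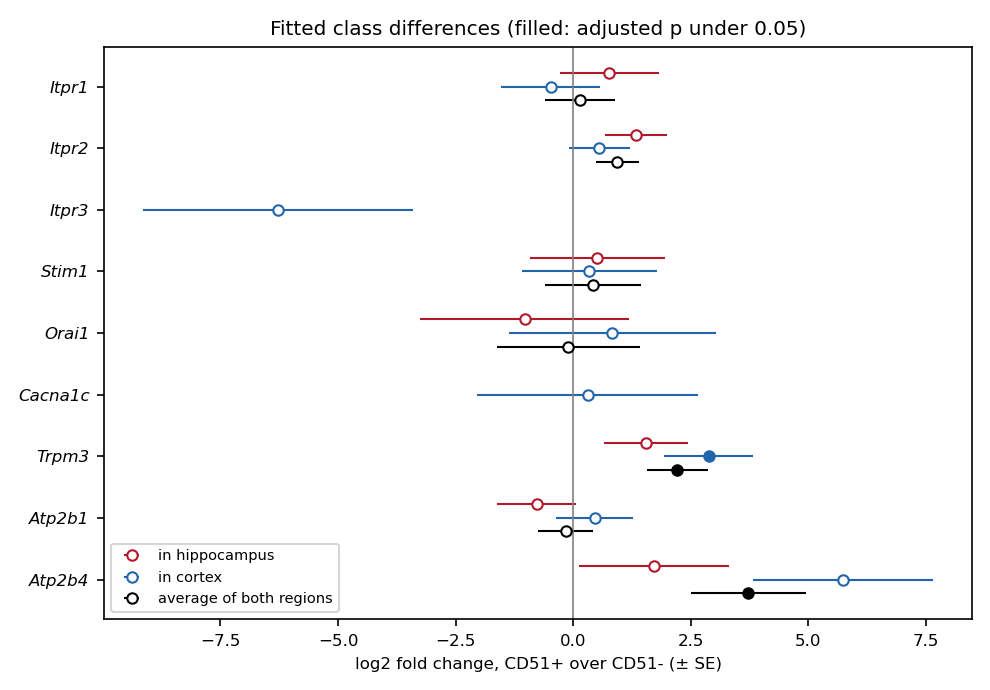
Fitted log2 fold change of CD51+ over CD51- cells for each gene in hippocampus, in cortex and averaged over both regions, with bars of 1 SE (edgeR, 12 libraries); filled points passed an adjusted p of 0.05. Trpm3 passes in cortex and in the average and Atp2b4 in the average; the hippocampus and average values of Itpr3 and Cacna1c are left out because a group had no count.

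Over the 9 genes together, 1 passed the test in cortex (Trpm3, higher in CD51+), where 11.3% of all 12613 genes tested did, and 3 of 9 passed in the average over regions (Trpm3 and Atp2b4 higher, Itpr3 lower), where 22.7% of all genes did. In hippocampus edgeR called 0 of 9, against 3.31% of all genes. There, 2 had an unadjusted p under 0.05 (Itpr3 and Cacna1c), and DESeq2 and limma-voom also called 0. The CD51+ and CD51- libraries did not overlap for 3 of the 9 in cortex (Trpm3, Atp2b4 and Itpr3), against 31.7% of all genes, and for 2 of the 9 in hippocampus (Trpm3 and Itpr2), against 27.1%. These shares lie near those of all genes, and the counts do not set the 9 apart from other genes. The median log2 fold change of the 9 was 0.46 in cortex, 0.77 in hippocampus and 0.43 on average, beside -0.03, -0.22 and -0.14 over all genes tested.

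Between regions, edgeR called 0 of the 9 (hippocampus over cortex, averaged over the classes), against 0.19% of all genes, with 1 unadjusted p under 0.05 (Cacna1c) and 0 calls by DESeq2 and limma-voom. Trpm3 differed by 0.96 ± 0.63 on the log2 scale (adjusted p = 0.516), Atp2b4 by 1.81 ± 1.13 (adjusted p = 0.489), Itpr1 by 0.65 ± 0.74 (adjusted p = 0.772), Itpr2 by -0.42 ± 0.46 (adjusted p = 0.755) and Atp2b1 by -0.36 ± 0.58 (adjusted p = 0.865). The 10 markers of ependyma and choroid plexus summed to 458 to 5862 CPM in hippocampus libraries and 24.4 to 481 CPM in cortex libraries. The part of such RNA in the regional values was not tested. For Cacna1c the counts were 39 in hippocampus, all of them in CD51+ cells, and 167 in cortex (adjusted p = 0.238). In the test of whether the class effect differed between regions, 0 of 9 passed, as did 0% of all genes, with 0 unadjusted p under 0.05 among the 9 and 0 calls by DESeq2 and limma-voom.

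The wider calcium pathway was read from a list of 152 genes in 14 roles that includes the 9. The deposited counts held 150 of them and 105 were tested. In cortex 9 were higher and 7 lower in CD51+ cells, 15.2% of those tested, against 11.3% of all genes. In the average over regions 16 were higher and 11 lower, 25.7% of those tested, against 22.7% of all genes, and their median log2 fold change was 0.44, beside -0.14 over all genes. Both shares lie near those of all genes and do not set the list apart. The cortex count was 8 without any 1 of the 3 cortex CD51+ replicates and with the cortex libraries alone. In hippocampus edgeR called 0 of 105, against 3.31% of all genes. The unadjusted p was under 0.05 for 22 of the 105, a count not given here over all genes. DESeq2 called 13 of the list and 1402 of all genes, and limma-voom 7 and 885. With the hippocampus libraries alone edgeR called 7 and 601. Whether the list differed from all genes in these counts was not tested. Leaving out the 9, the counts were 8 higher and 7 lower of 96 in cortex and 14 higher and 10 lower of 96 in the average.

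On the average over regions, 4 of 18 tested genes that make, remove or compete with IP3 were higher and 2 were lower in CD51+ cells, 33.3% against 22.7% of all genes, a difference that was not tested. Plcb1, a phospholipase C activated by Gq proteins, averaged 458 ± 252 CPM in hippocampus CD51+, 68.2 ± 41.2 CPM in hippocampus CD51-, 277 ± 148 CPM in cortex CD51+ and 26.2 ± 21.8 CPM in cortex CD51- cells (log2 fold change 3.07 ± 0.64, edgeR adjusted p = 0.00171). Ahcyl1, whose product IRBIT binds IP3 receptors in competition with IP3, was higher by 1.82 ± 0.48 (adjusted p = 0.00985), and the phospholipase C gene Plcd4 by 2.07 ± 0.65 (adjusted p = 0.0242). Plce1, another phospholipase C, had 2002 counts in CD51+ and 213 in CD51- libraries, a pooled ratio of 15.7 after scaling (95% counting interval 13.7 to 18.2). Its cortex counts were 253 in CD51+ and 1 in CD51- libraries. The fitted log2 fold change of Plce1 was 5.79 ± 1.14 (edgeR adjusted p = 0.000933). The lower genes were Plcb2 and Plcg2, phospholipases C known from blood cells and microglia. Plcb2 had 8 counts in CD51+ and 3326 in CD51- libraries (adjusted p = 0.000432), and Plcg2 had a log2 fold change of -4.57 ± 1.03 (adjusted p = 0.00309).

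Among genes of the store itself, the ryanodine receptor Ryr2 had no count in CD51+ libraries and 357 in CD51- libraries. Its average over regions passed the test (edgeR adjusted p = 0.0164). With the floor of 3 counts, Ryr2 was 71.1-fold lower in CD51+ cells. The counting interval reached down to 57.5-fold and leaves out the spread between libraries. All 115 Ryr2 counts of the cortex were in CD51- replicate 2, and without that library the average did not pass (adjusted p = 0.9998). Tmco1, a channel that leaks calcium from an overfilled store, was higher in CD51+ cells by 3.26 ± 0.88 on the log2 scale (adjusted p = 0.0107). The calcium binding proteins Rcn2, of the endoplasmic reticulum, and Sdf4, of the Golgi, were higher by 2.70 ± 0.51 (adjusted p = 0.000671) and 2.05 ± 0.60 (adjusted p = 0.0169). The pump Atp2a2, which refills the store, made up nearly all of the SERCA level in CD51+ cells, with at least 97.0% in every CD51+ library, 66.2% to 99.9% in hippocampus CD51- libraries and at least 99.9% in cortex CD51- libraries.

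Of 9 tested TRP channel genes, Trpm3 and Trpc1 were higher and Trpm2 and Trpv2 lower in CD51+ cells on average, 44.4% against 22.7% of all genes, a difference that was not tested. Trpc1, a channel linked to receptor-driven entry, differed by 5.27 ± 1.57 on the log2 scale (edgeR adjusted p = 0.0193). Trpm2, a channel opened by ADP-ribose and known from microglia, had no count in the 6 CD51+ libraries and 957 in the CD51- libraries. Its average over regions passed the test (edgeR adjusted p = 0.00143). With the floor of 3 counts, Trpm2 was 191-fold lower in CD51+ cells. The counting interval reached down to 154.7-fold and leaves out the spread between libraries. Trpv2 had 19 counts in CD51+ and 1285 in CD51- libraries (adjusted p = 0.012).

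Of the remaining roles, Slc8a1, the sodium calcium exchanger NCX1, was lower in CD51+ cells (-3.03 ± 0.84, edgeR adjusted p = 0.0129), and Slc24a4, an exchanger that also uses potassium, was higher, with 454 counts in CD51+ and 42 in CD51- libraries (adjusted p = 0.0255). Piezo1, a stretch-gated channel, P2rx7, an ATP-gated channel known from microglia, and Tmem63a, a channel opened by stretch or osmotic stress, were lower, with log2 fold changes of -4.35 ± 1.05 for Piezo1 (adjusted p = 0.00524), -2.91 ± 0.79 for P2rx7 (adjusted p = 0.0116) and -3.45 ± 1.17 for Tmem63a (adjusted p = 0.0367). Vdac1, the main channel of the outer mitochondrial membrane, was higher by 2.09 ± 0.56 (adjusted p = 0.0106). Of the voltage-gated pore genes Cacna1e was higher, with 293 counts in CD51+ and 28 in CD51- libraries (adjusted p = 0.0374), and of the calcium binding proteins of the cytosol S100b was higher by 1.29 ± 0.45 (adjusted p = 0.0398) and S100a6 by 4.55 ± 1.56 (adjusted p = 0.0379). S100b is also one of the 15 astrocyte markers. In cortex alone, Cacnb2, an auxiliary subunit of voltage-gated channels, was lower, with a log2 fold change of -6.11 ± 1.99 (adjusted p = 0.048). Under all 21 alternatives of the average, Plcb1, Plcb2, Plcg2, Plce1, Ahcyl1, Orai2, Atp2b2, Rcn2, Trpm2, Slc8a1, P2rx7 and Piezo1 kept their calls, whereas S100b lost its call in 13, Cacna1e in 12, S100a6 and Tmem63a in 10 each, Plcd4 in 6, Slc24a4 in 5, Sdf4 in 4, Trpc1 in 2, and Tmco1, Vdac1, Trpv2 and Ryr2 in 1 each. Trpv2 lost its call without cortex CD51- replicate 3 (adjusted p = 0.188), which held all but 1 of that group's counts. Vdac1 (0.0617), Trpc1 (0.0987), Sdf4 (0.0516) and Slc24a4 (0.103) lost theirs without cortex CD51+ replicate 3, and Tmco1 (0.0531) without hippocampus CD51+ replicate 2. Hippocampus CD51+ replicate 2 also decided Sdf4 and Slc24a4, hippocampus CD51+ replicate 3 Trpc1, Sdf4 and Plcd4, hippocampus CD51- replicate 2 Slc24a4 and Plcd4, and hippocampus CD51- replicate 3 Sdf4 and Plcd4. Plcd4 also lost its call without replicate 1 of either cortex class. The cortex call of Cacnb2 was lost in 9 of 22. Several of the lower genes are known from microglia, whose marker sum was lower in CD51+ libraries too, and the part of such RNA in these differences was not tested.

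**Figure D4:**
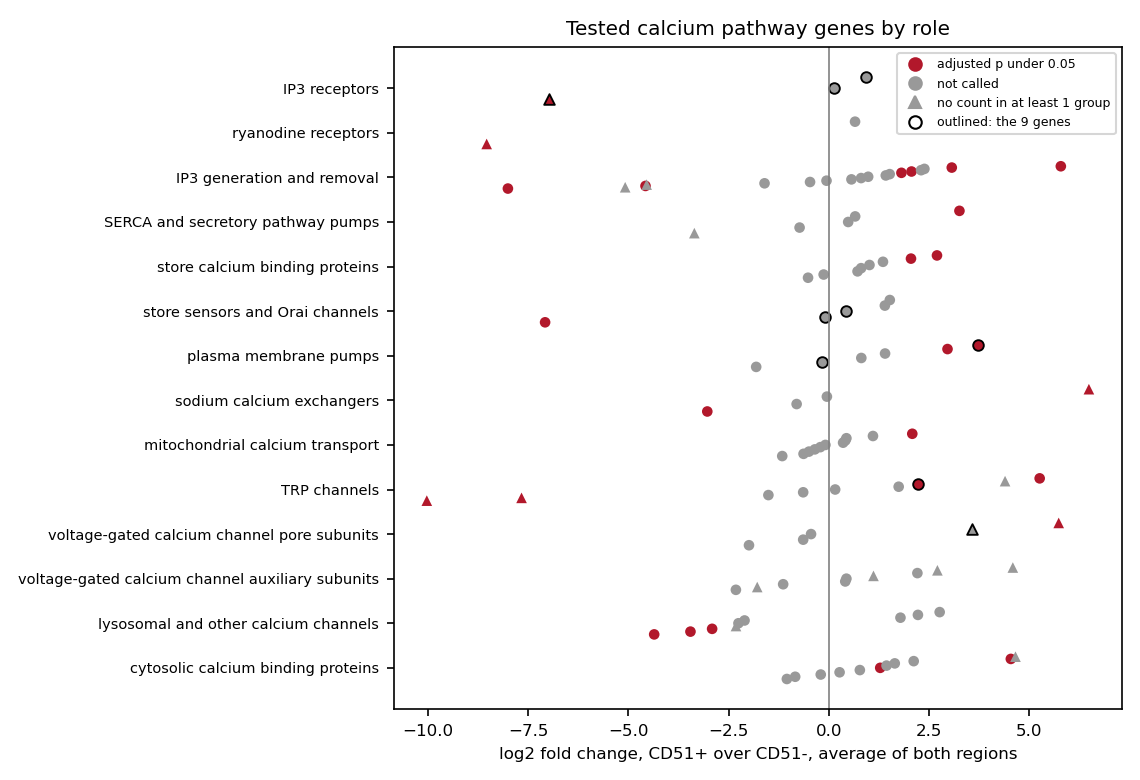
Fitted log2 fold change of CD51+ over CD51- cells, averaged over both regions, for each of the 105 tested genes of the calcium list, grouped by role; red marks an adjusted p under 0.05, triangles mark genes with no count in at least 1 group, whose fitted values depend on the prior count, and outlines mark the 9 genes. Called genes lie on both sides of 0, 16 higher and 11 lower in CD51+ cells.

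The genes most alike to 3 more of the 9 were named by the same measure. For Itpr3 they were Sh2d3c (0.53), Ero1lb (0.57) and Renbp (0.67), for Atp2b4 Brcc3 (0.85), Nacc2 (0.91) and Phyh (0.91), and for Cacna1c Strbp (0.85), Sec23a (0.86) and Kxd1 (0.87), each a root mean square difference over 12 libraries among 8555 genes. The nearest match of Trpm3 was closer than that of any of these 3.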

How the data were processed

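The deposited table holds raw counts of read pairs per gene, made by the authors, per the file headers, with featureCounts 2.0.4 over the exons of GENCODE vM25 genes, unstranded and from primary alignments. The table also gives an exon length per gene. Per the submitters' processing notes, STAR, mm10 and DESeq2 1.40.2 were used. Symbols came from a GENCODE name table that matched 55141 of 55401 gene IDs.

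Genes were filtered with filterByExpr (minimum count 10, minimum total 15) and tested by quasi-likelihood in edgeR 4.0.16 (R 4.3.3). TMM factors were used, with 12 libraries and 4 group levels in 1 fit and Benjamini-Hochberg adjustment at 0.05 over all 12613 genes. Each SE was computed as the size of the log2 fold change over the root of its F statistic. Genes with no count in a group get a floor of 3 counts over the group. Counting intervals (95%, exact) cover counting error only, since molecules carry no identifiers. The alternatives were DESeq2 1.42.0, limma-voom (limma 3.58.1), other scalings and filters, robust dispersion, a replicate block, 1 region alone and each library left out. The 9 genes, the calcium list and the marker lists were chosen with earlier results of these data known. All 9 are named, with listed genes called in any comparison. The genes named as alike are for the 4 with the largest fold changes, from genes of at least 5 mean CPM.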

Additional observations from a re-analysis of the deposited data

How the results depend on the processing

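Trpm3 kept its call in the average over regions under all 21 alternatives, with a log2 fold change from 1.92 to 3.40. Genes called in cortex came to 3182 in DESeq2 and 2164 in limma-voom, with 879 to 1507 when 1 library was left out, and those called in hippocampus to 1402 in DESeq2, 885 in limma-voom and 636 with no filter, with 198 to 559. Between regions the count was 719 in DESeq2, 53 in limma-voom, 292 with no filter and 112 with robust dispersion, with 11 to 69 when 1 library was left out. For the difference between effects it was 500 in DESeq2, 146 with no filter and 1 with robust dispersion, with 0 to 42. Of the 9 genes, cortex calls numbered 3 in DESeq2 and limma-voom, and 2 with upper-quartile factors (1452 of all genes). They numbered 0 with RLE factors (1424 of all genes), robust dispersion (1649) or the cortex libraries alone (1122). Leaving out 1 library gave 0 to 1 of the 9 in cortex and 1 to 3 in the average, where it gave 2112 to 3205 of all genes. Over all tested genes, the replicate numbers did not pair the libraries (correlations of same-numbered deviations from -0.05 to 0.03). With a replicate block, edgeR called 1 of the 9 and 2540 of all genes in the average (adjusted p 0.0691 for Itpr3 and 0.0821 for Atp2b4). The calcium list gave 30 calls in cortex in DESeq2, and in hippocampus 13 in DESeq2, 7 in limma-voom, 7 with the hippocampus libraries alone and 6 with no filter. Of 786 alternative values for the 9 genes, 25 turned in sign, none of them in a called difference. For the other listed genes named, 145 of 1069 alternative values lost a call and none turned in sign. The log2 fold change of Orai1 turned to -1.63 (limma-voom) and -0.47 (replicate block) in cortex and to 0.076 in the average (upper-quartile factors). With 1 library left out, ranges that crossed 0 were, in cortex, -1.03 to 0.26 (Itpr1), -0.39 to 0.62 (Stim1), -4.44 to 1.69 (Orai1), -0.032 to 0.80 (Atp2b1) and -3.37 to 4.29 (Cacna1c). In hippocampus they were -0.43 to 2.24 (Stim1) and -1.26 to 0.40 (Atp2b1), and in the average -0.15 to 0.51 (Itpr1), -0.042 to 1.29 (Stim1), -2.73 to 0.33 (Orai1) and -0.41 to 0.42 (Atp2b1). The causes were not tested. Itpr3, Cacna1c, Orai1 and Atp2b4 had groups of 0 to 39 counts, and what this did to their tests was not examined.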
